A study of Drosophila melanogaster with 2 samples.

Results

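Aminoacyl-tRNA synthetases join each amino acid to its transfer RNA, the step that fixes the genetic code during protein synthesis. The cytoplasm and the mitochondrion both need such enzymes, and animal genomes encode most of the mitochondrial ones with separate nuclear genes. The genes described here were chosen by name, as the Drosophila melanogaster protein-coding genes whose symbol joins a short amino acid code, or GluPro, to RS. The rule found 35 of 13945 protein-coding genes on the main chromosome arms. Of these, 15 carry the suffix -m and are called mitochondrial below, and the other 20 are called cytoplasmic. Some animal genes without the suffix, such as those for glycine and lysine, also supply the mitochondrion, so the second name is only a shorthand.

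The question was where the fusion protein CG7786-eGFP, with the tag at its C terminus, was bound at these genes. CG7786 is a predicted basic leucine zipper (bZIP) factor of the PAR type, mapped by chromatin immunoprecipitation and sequencing (ChIP-seq). The material was whole embryos of a stable transgenic line of mixed sex, 0 to 24 hours old, so all tissues and embryonic stages are averaged. Both libraries, biological replicates 2 and 3, belong to 1 group, and every embryo carried the tagged transgene. The labels do not name the promoter that drives the transgene, and they name both an antibody against GFP and CG7786 as the antibody target. The control alignment was not analysed here. With no second condition, the results are counts, positions and the authors' signal values, set beside the same counts over all protein-coding genes, and no test was made. Nothing beyond the labels says that the libraries came from separate collections, and the number of reads behind them is unknown.

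The authors' list after the irreproducible discovery rate procedure (IDR) held 4045 peaks on dm6. They were the 4045 strongest entries of the pooled list, so an IDR peak need not rank as high in each replicate. A gene had a TSS peak when the summit of an IDR peak lay within 500 bp of any of its annotated transcription start sites (TSSs). Of the 35 synthetase genes 12 had a TSS peak (34.3%), against 19.5% of all protein-coding genes. They were the cytoplasmic genes SerRS, IleRS, GluProRS, ThrRS, beta-PheRS, ArgRS, AspRS, ValRS, AsnRS and GlnRS and the mitochondrial genes ArgRS-m and LeuRS-m. Thus 10 of 20 cytoplasmic genes (50%) and 2 of 15 mitochondrial genes (13.3%) had one, a difference that was not tested. Only HisRS gained a peak when the gene body was added, which made 13 of 35 (37.1%) against 23.6% of all protein-coding genes.

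The synthetase peaks were spread through the whole IDR list. The signal value, the authors' own score for a peak, ran from 85.9 at GlnRS to 399.7 at SerRS. Its median over the 12 TSS peaks was 128.3, against 136.2 over all 2237 TSS-proximal IDR peaks. Cut by rank into 4 nearly equal parts, the IDR list held 3 of the 12 in each. Among the 2022 strongest IDR peaks, 6 genes remained (17.1%), against 11.2% of all protein-coding genes. They were SerRS, IleRS, GluProRS, ThrRS, ArgRS-m and LeuRS-m.

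**Figure D1:**
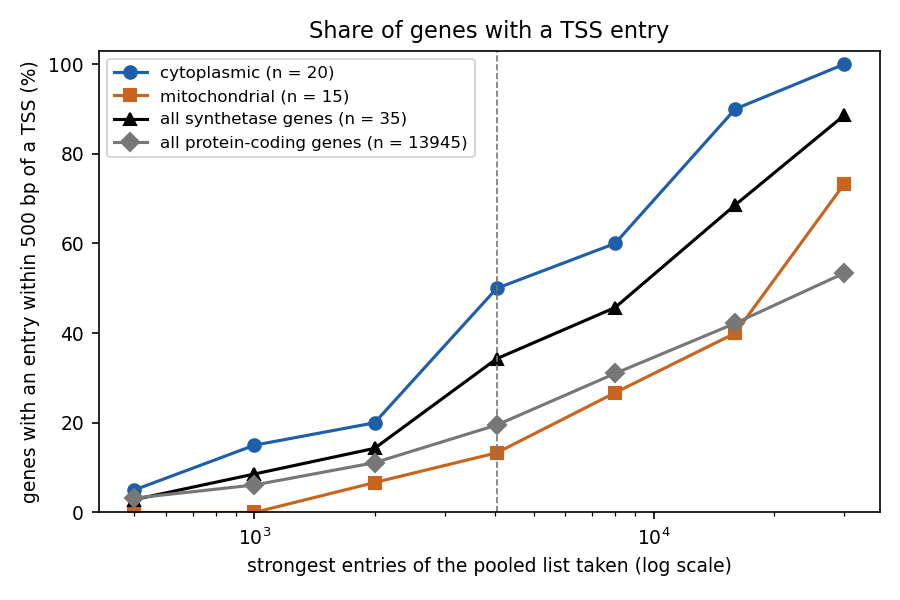
Percentage of genes with an entry within 500 bp of a TSS as more of the authors' pooled list is taken, from the 500 strongest entries to all 30000 (log axis). The dashed line marks 4045 entries, the size of the IDR list. At that line 50% of cytoplasmic, 13.3% of mitochondrial and 34.3% of all synthetase genes had an entry, against 19.5% of all protein-coding genes.

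Most of these peaks were shared with a gene on the other side of the promoter. For 11 of the 12, the summit also lay within 500 bp of the TSS of a neighbouring protein-coding gene, and in all 11 the nearest starts of both genes pointed away from each other, head to head. The annotated genes overlap at AspRS, where Nmda1 starts inside the gene before an internal start, and at SerRS, where CG17260 has a further start inside SerRS. Among all 2135 IDR peaks near a protein-coding TSS, 39.4% were near those of more than 1 gene. That share counts each peak once, whereas the 12 were found through genes. A shared peak can be found through more than 1 gene, so the shares are not alike in unit. Counted by gene, 1156 of the 2715 protein-coding genes with a TSS peak had an unshared one. For the 11 shared synthetase peaks, the distance from the summit was smaller to the synthetase TSS in 7 cases. It was smaller to the neighbour in 3 (AspRS, LeuRS-m and ValRS) and equal in 1 (GluProRS). beta-PheRS was the only synthetase gene whose TSS peak lay near no other protein-coding TSS, so 1 of 35 had an unshared TSS peak (2.86%), against 8.29% of all protein-coding genes. For the other 11, the lists cannot say to which of the facing genes a peak belongs.

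**Figure D2:**
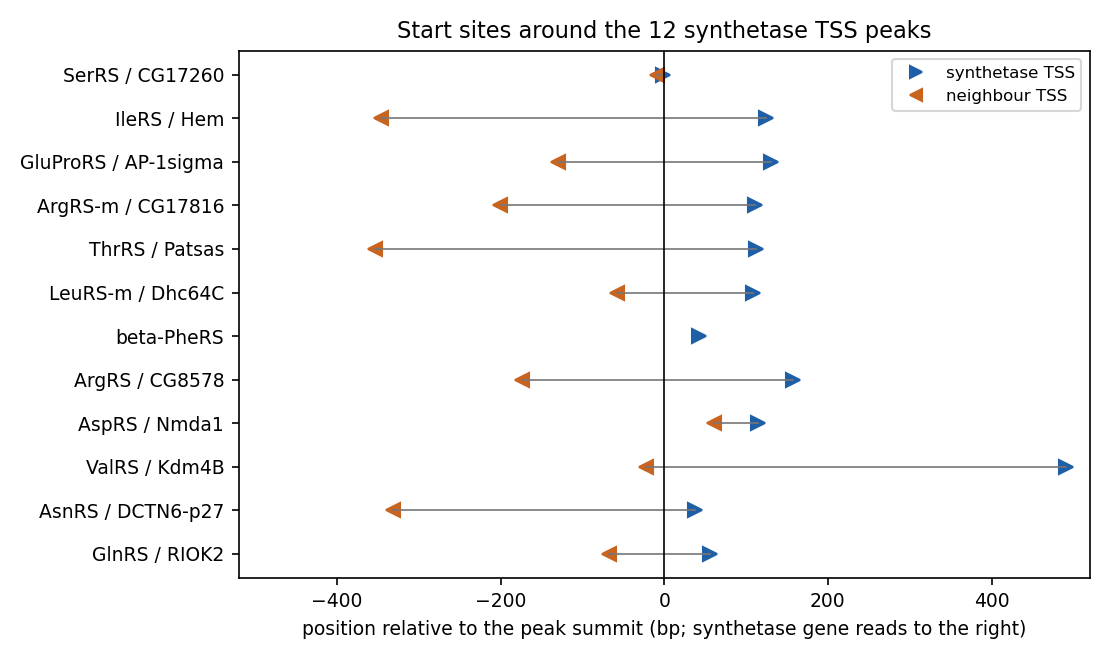
Start sites of the synthetase gene (blue) and of the neighbouring gene (orange) in bp from the summit of each of the 12 TSS peaks, drawn so that the synthetase gene reads to the right. Rows run from the strongest peak (SerRS, 399.7) to the weakest (GlnRS, 85.9), and the line joins the 2 starts, from 8 bp apart at SerRS to 513 bp at ValRS.

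Synthetase genes were often arranged this way, with or without a peak. Another protein-coding TSS lay within 500 bp of a TSS of 23 of the 35 (65.7%), against 30.9% of all protein-coding genes. Among genes with such a neighbour, 10 of 23 synthetase genes had a TSS peak (43.5%), against 37.2% of all protein-coding genes of that kind. Among genes without one it was 2 of 12 (16.7%), ValRS and beta-PheRS, against 11.5%. Within each class the synthetase share stood nearer to its background than the undivided 34.3% did to 19.5%, which was not tested. By this measure ValRS counts as having no neighbour, because its TSS and that of Kdm4B are 513 bp apart. Cytoplasmic genes had a close neighbour in 16 of 20 cases (80%) and mitochondrial genes in 7 of 15 (46.7%). With a neighbour, 8 of 16 cytoplasmic (50%) and 2 of 7 mitochondrial genes (28.6%) had a TSS peak. Without one, 2 of 4 cytoplasmic (50%) and 0 of 8 mitochondrial genes did. The share that promoter arrangement has in the difference between the sets was not tested.

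**Figure D3:**
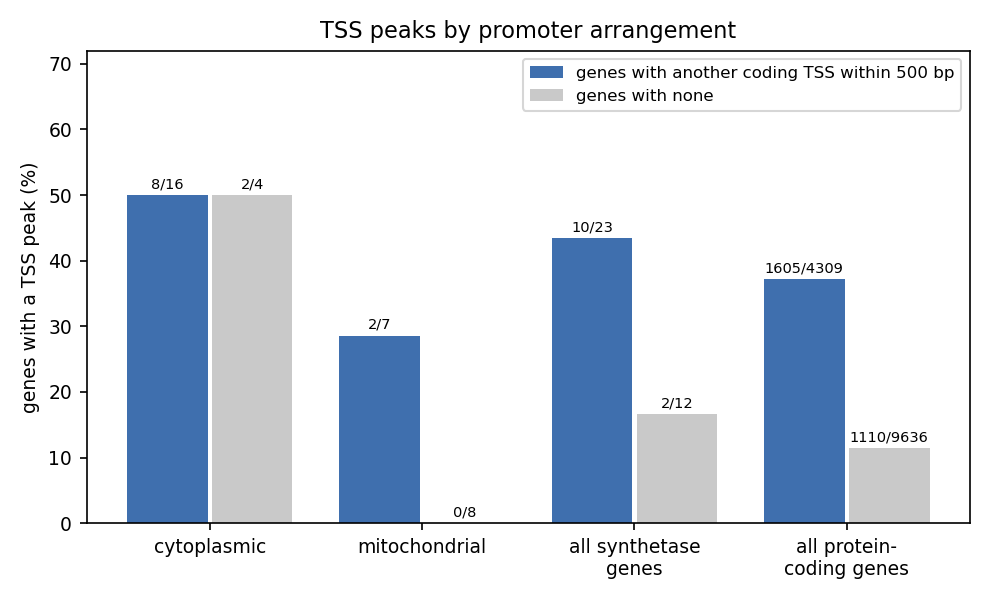
Percentage of genes with a TSS peak, split by whether another protein-coding TSS lies within 500 bp (blue) or not (grey), with the counts above the bars. All synthetase genes stand at 43.5% and 16.7%, and all protein-coding genes at 37.2% and 11.5%.

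Sequence is shown for 6 of the 12 peaks as examples: SerRS, GluProRS, GlnRS and LeuRS-m for facing starts at most 260 bp apart, IleRS for a motif match near its start, and beta-PheRS as the promoter with no facing start. It was read from the RefSeq Release 6 genome on the strand of the synthetase gene, 5′ to 3′, and capitals mark a motif match. For SerRS, GluProRS, GlnRS and LeuRS-m each run goes from 15 bp before the neighbour's start to 15 bp past the synthetase start. For IleRS it covers 200 bp before its start and 15 bp after, and for beta-PheRS 120 bp around the summit.
SerRS, chr2L:3037388-3037426, minus strand: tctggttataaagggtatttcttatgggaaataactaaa
GluProRS, chr3R:23958376-23958666, minus strand: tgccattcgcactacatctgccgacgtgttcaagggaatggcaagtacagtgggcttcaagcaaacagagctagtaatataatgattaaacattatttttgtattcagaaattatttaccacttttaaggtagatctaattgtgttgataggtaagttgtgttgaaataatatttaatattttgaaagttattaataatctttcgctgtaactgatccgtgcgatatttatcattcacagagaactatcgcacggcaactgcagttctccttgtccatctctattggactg
GlnRS, chr3R:25265706-25265859, minus strand: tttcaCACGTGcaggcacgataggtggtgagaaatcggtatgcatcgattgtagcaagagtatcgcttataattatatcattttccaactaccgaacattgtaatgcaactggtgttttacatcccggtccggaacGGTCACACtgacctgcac
LeuRS-m, chr3L:4825672-4825868, plus strand: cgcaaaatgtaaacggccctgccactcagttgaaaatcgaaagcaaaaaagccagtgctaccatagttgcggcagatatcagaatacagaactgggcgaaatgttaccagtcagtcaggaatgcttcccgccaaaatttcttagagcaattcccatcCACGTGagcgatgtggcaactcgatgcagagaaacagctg
IleRS, chr3L:22288465-22288680, plus strand: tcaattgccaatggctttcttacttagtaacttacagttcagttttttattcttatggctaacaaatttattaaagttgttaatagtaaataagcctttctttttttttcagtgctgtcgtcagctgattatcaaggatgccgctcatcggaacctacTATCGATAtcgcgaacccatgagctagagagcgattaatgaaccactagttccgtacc
beta-PheRS, chr3R:24252661-24252780, minus strand: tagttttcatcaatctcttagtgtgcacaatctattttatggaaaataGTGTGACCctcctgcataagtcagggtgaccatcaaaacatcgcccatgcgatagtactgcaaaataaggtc
The capitals in GlnRS are an E-box at the RIOK2 end and a Motif 1 core at the GlnRS start. Those in LeuRS-m are an E-box, those in IleRS a DRE core, and those in beta-PheRS a Motif 1 core on the opposite strand. The SerRS and GluProRS runs held none of the 8 motifs searched.

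SerRS, the seryl-tRNA synthetase gene, had the strongest peak of the family. The summit (2L:3037402, dm6) lay 1 bp inside its first exon, and a start of CG17260 is 8 bp from its own. The signal value was 399.7 in the pooled list, 153.2 in replicate 2 and 242.8 in replicate 3. Each list has its own scale, so signal values are not compared between lists. The corresponding ranks were 251, 264 and 248 of 30000 entries, so SerRS ranked alike in both replicates.

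IleRS, which charges isoleucine tRNA, followed with a narrow peak of 183 bp at 3L:22288449-22288631. Its signal values were 286.9 pooled, 120.3 in replicate 2 and 174.3 in replicate 3, and its ranks 507, 461 and 512. The summit lay between genes, 124 bp before the IleRS start and 346 bp before that of Hem, which encodes a subunit of the Scar/WAVE actin regulator.

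GluProRS encodes a fused enzyme with a glutamyl and a prolyl domain. Its signal values were 231.7 pooled, 82.5 in replicate 2 and 148.6 in replicate 3, with ranks of 745, 961 and 667. The summit at 3R:23958521 lay 130 bp from its own start and 130 bp from that of AP-1sigma, a clathrin adaptor subunit gene. This is the midpoint of the 260 bp between the starts.

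GluProRS, IleRS, ArgRS, AspRS and GlnRS encode enzymes whose mammalian counterparts sit together in the multisynthetase complex, a cytoplasmic assembly of several synthetases and scaffold proteins. Of the 8 genes of that kind, 5 had a TSS peak, and LeuRS, LysRS and MetRS did not. Of the other 12 cytoplasmic genes 5 had one, where the share of all protein-coding genes was 19.5%. Synthetases fall into a pair of structural classes with unrelated catalytic folds. By class, 6 of 18 class I genes and 5 of 16 class II genes had a TSS peak, with GluProRS, which holds both, left out of the count, against the same 19.5%.

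ArgRS had a peak at X:15844100-15844503, 157 bp from its start and 174 bp from that of CG8578. The signal value was 119.6 pooled, 38.8 in replicate 2 and 87.8 in replicate 3. It ranked 3478 in replicate 2 and 1694 in replicate 3.

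AspRS was the one gene whose peak lay at an internal start. Its summit at 2R:12880169 lay 115 bp before that TSS and in exon sequence of both AspRS and Nmda1, whose nearest start is 61 bp away. The signal values were 111.5 pooled and 58.2 in replicate 2. Replicate 3 split the region into an entry of 43.0, nearest to the pooled summit, and one of 57.1, 320 bp before the internal start. At the first TSS of AspRS the pooled entry reached only 30.9 (rank 16328).

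GlnRS had the weakest TSS peak. Its signal values were 85.9 pooled, 27.6 in replicate 2 and 57.8 in replicate 3. The ranks of 6279 and 3103 in the replicates put it outside the 4045 strongest of replicate 2. The summit lay 56 bp from its start and 67 bp from that of RIOK2, a kinase gene of small ribosomal subunit maturation.

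Of the remaining cytoplasmic genes, ThrRS reached 161.2 pooled, 62.9 in replicate 2 and 98.3 in replicate 3, with a summit 112 bp before its start at 2L:12103639. Its ranks of 1421, 1553 and 1395 were close in all 3 lists. The facing gene is Patsas, 354 bp from the summit.

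beta-PheRS encodes a subunit of the cytoplasmic phenylalanyl enzyme. Its signal values were 125.7 pooled, 41.7 in replicate 2 and 82.6 in replicate 3, with a summit 42 bp before the start at 3R:24252721. alpha-PheRS encodes the partner subunit and had no IDR peak. Its pooled entry had a signal value of 44.4 (rank 8984). Its promoter window held an entry in replicate 3 (rank 6728) and none in replicate 2, so the genes for the parts of 1 enzyme differed in this list.

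ValRS reached 95.9 pooled, 38.2 in replicate 2 and 52.0 in replicate 3. Its summit at 2R:13198359 lay 491 bp from the ValRS start and 22 bp from that of Kdm4B, a histone demethylase gene. With a 250 bp window it no longer counted for ValRS.

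AsnRS reached 95.3 pooled, 53.2 in replicate 2 and 45.9 in replicate 3, 38 bp before its start at 2L:19131992. DCTN6-p27, a dynactin subunit gene, starts 331 bp from that summit. AsnRS ranked 2100 in replicate 2 and 4176 in replicate 3, just outside the 4045 strongest of the latter.

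Both mitochondrial genes with a peak ranked alike in the replicates. ArgRS-m had signal values of 188.0 pooled, 81.2 in replicate 2 and 107.0 in replicate 3, with a summit 111 bp before its start at 3R:7886934. CG17816 starts 201 bp from it. LeuRS-m had 131.0, 52.3 and 74.5 in the same order, and ranked 2154 and 2172 in the replicates. Its summit at 3L:4825745 lay 108 bp from the LeuRS-m start but 58 bp from that of Dhc64C, the cytoplasmic dynein heavy chain gene.

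HisRS had a peak inside the gene and none at its start. The summit at X:18516242 lay 814 bp downstream of the TSS, in exon sequence of HisRS and within an intron of Bx, a LIM-only factor gene. The signal value was 83.3 pooled, 39.5 in replicate 2 and 44.0 in replicate 3. Its TSS window held only a pooled entry of 22.6 (rank 27606) and 1 of replicate 3, and none of replicate 2.

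**Figure D4:**
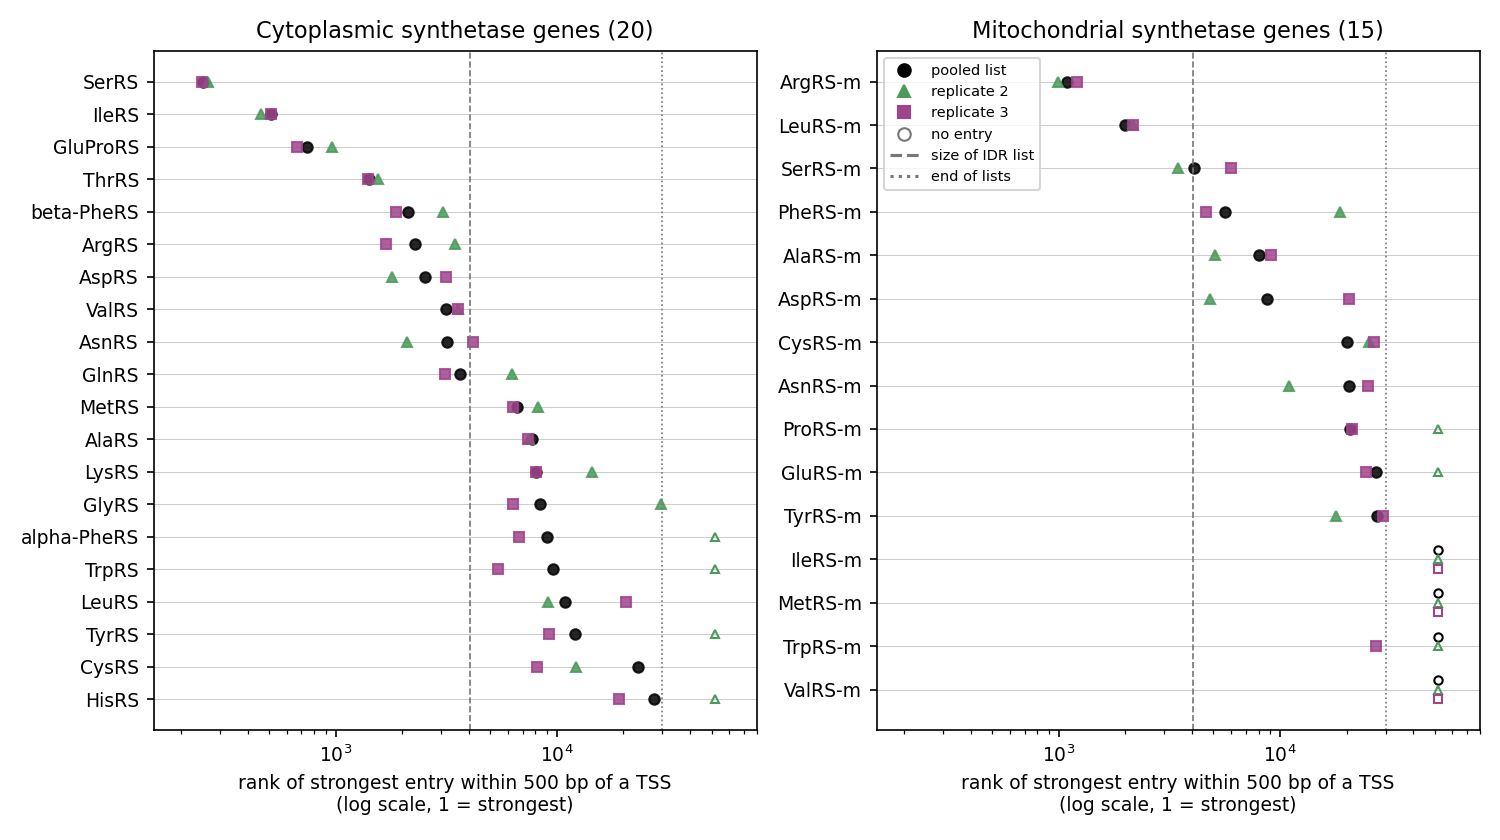
Rank of the strongest entry within 500 bp of a TSS for each synthetase gene (log axis, 1 is strongest) in the pooled list (circles), replicate 2 (triangles) and replicate 3 (squares). Open symbols at the right mark genes with no entry, the dashed line rank 4045 and the dotted line the end of the lists at 30000. SerRS, at 251, 264 and 248, leads, and IleRS-m, MetRS-m and ValRS-m have no entry within 500 bp of a TSS in any list.

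The replicate ranks of 10 of the 12 genes with a TSS peak were within 2-fold of each other, taking the strongest entry in the window. The larger of a gene's replicate ranks was 1.33 times the smaller at the median and 2.05 times at most, at ArgRS. Taking the entry nearest to the IDR summit instead, 9 of the 12 were within 2-fold and the largest ratio was 2.54, at AspRS. Spearman's rho between the replicate ranks was 0.755 across these 12 genes for the strongest entries and 0.713 for the nearest. It describes peaks of the same 2 libraries, selected by the authors with both replicates. The window of 12 genes held one of the 4045 strongest entries of replicate 2 (34.3%), against 19.2% of all protein-coding genes, and that of 11 genes one of replicate 3 (31.4%), against 19.4%. In 10 genes it did in both (28.6%), against 16.2%, which left out AsnRS and GlnRS of the 12 with a peak.

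The relaxed lists, which include background by design, placed the other genes in order. In the pooled list 31 of 35 genes had a TSS entry (88.6%), against 53.4% of all protein-coding genes, and all 20 cytoplasmic genes were among them. In replicate 2 it was 25 genes (71.4%), against 50.3%, and in replicate 3 it was 32 genes (91.4%), against 54.1%. All 3 lists held an entry for 25 genes (71.4%), against 41.9%, made up of 16 cytoplasmic and 9 mitochondrial genes. Counting the gene body and any of the lists, IleRS-m was the only synthetase gene with no entry at all, so 34 of 35 had one (97.1%), against 73.6%.

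SerRS-m came nearest to the IDR list from outside. Its pooled entry had a signal value of 79.2 (rank 4066), where the last IDR peak had 79.5 (rank 4045). It lay 405 bp before the start and near no other protein-coding TSS. SerRS-m ranked 3451 in replicate 2 and 6030 in replicate 3. PheRS-m, next among the mitochondrial genes, had a pooled value of 61.8 (rank 5631) but ranked 18629 in replicate 2 and 4616 in replicate 3. AlaRS-m (47.7, rank 8033) and AspRS-m (45.1, rank 8774) stood higher in replicate 2, at ranks 5108 and 4803, than in replicate 3, at 9136 and 20528.

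The other mitochondrial genes stood low in the pooled list or had no TSS entry in it. Pooled ranks were 20066 for CysRS-m, 20441 for AsnRS-m, 20662 for ProRS-m, 27210 for GluRS-m and 27323 for TyrRS-m. Of these ProRS-m and GluRS-m had no TSS entry in replicate 2. TrpRS-m had 1 of replicate 3 only (rank 27139). AsnRS-m ranked 10937 in replicate 2 and 25092 in replicate 3. IleRS-m, MetRS-m and ValRS-m had no TSS entry in any list.

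Most cytoplasmic genes without a peak ranked higher in the pooled list than those, with MetRS at 6605 (signal value 54.8), AlaRS at 7718 (49.0), LysRS at 8075 (47.5) and GlyRS at 8356 (46.4). TrpRS (9607), LeuRS (10921) and TyrRS (12123) followed, and CysRS (23282) stood lower. CysRS ranked higher in each replicate, at 12147 in replicate 2 and 8102 in replicate 3. Those summits lay 372 bp before its start and 115 bp after it. The window of TrpRS and that of TyrRS held no entry in replicate 2, while replicate 3 placed these genes at ranks 5423 and 9254. AlaRS ranked alike in the replicates, at 7499 and 7425. GlyRS was at 29573 in replicate 2 and 6347 in replicate 3, the widest gap of any synthetase gene with entries in both.

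Of the 12 amino acids with 1 cytoplasmic and 1 mitochondrial gene, arginine alone had a TSS peak at both. For asparagine, aspartate, isoleucine, serine and valine the peak was at the cytoplasmic gene only, and for leucine at the mitochondrial gene only. Alanine, cysteine, methionine, tryptophan and tyrosine had a peak at neither. Of all protein-coding genes, taken singly, 19.5% had a TSS peak. Whether peaks coincide within these pairs was not tested.

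Sequence around the summits was searched on both strands for 8 motifs, none of which contains another. The PAR bZIP site, TTACGTAA or TTATGTAA, was in 0 of the 12 summit windows of 200 bp, against 1.95% of all IDR windows. The CRE site TGACGTCA occurred at AspRS alone, 44 bp from the summit, against 0.321% of windows. The C/EBP site TTGCGCAA occurred in none, against 0.222%. The C/EBP-ATF response element TGATGCAA, to which ATF4-type bZIP dimers bind in mammalian amino acid stress genes, occurred at AsnRS alone, 90 bp from the summit, against 0.667%.

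The other motifs searched are found in promoters of many kinds. The Motif 1 core GGTCACAC, found in promoters of widely expressed fly genes, was in 3 windows (GlnRS, ValRS and beta-PheRS), against 2.67% of all IDR windows and 4.56% of TSS-proximal ones. At beta-PheRS it lay 8 bp from the summit and at ValRS 21 bp, nearer to the Kdm4B start than to its own. The E-box CACGTG, the site of Myc and related factors, was in 2 windows (GlnRS and LeuRS-m), against 2.5% and 3.04% of the same sets. The DRE core TATCGATA, the site of the replication-related factor DREF, was in 1 (IleRS), against 4.94% and 8.45%. In windows of 400 bp it was in 3 (ArgRS, AspRS and IleRS), against 7.34% of all IDR windows. GAGAGAG, the GAGA factor site, was in none, against 3.86% and 4.11%. The windows held 28.0 to 46.0% GC with a median of 35.0%, against 37.5% over all TSS-proximal windows.

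Promoters of the whole family were searched too, from 250 bp before to 50 bp after the first start. A DRE core was in 5 of 35 (14.3%), against 9.36% of all protein-coding genes, at AlaRS, ArgRS, IleRS, PheRS-m and TrpRS. The Motif 1 core was also in 5 (14.3%), against 7.7%. The PAR bZIP site was in 1, ValRS, against 2.6%. With 500 bp on either side of the start it was in 5 of 35 (14.3%), against 8.72%, at AspRS, GlyRS, TrpRS-m, ValRS and beta-PheRS. The response element TGATGCAA was in 0 of 35, against 0.817%. In the wider window it was in 8 of 35 (22.9%), against 3.08%. These were ArgRS, AsnRS, GluProRS, IleRS, LeuRS, MetRS, ThrRS and GluRS-m, and all 8 matches lay downstream of the start, 52 to 496 bp into the gene. Of the 8 genes, 5 had a TSS peak, where the share was 34.3% of the synthetase genes and 19.5% of all protein-coding genes. The share among all protein-coding genes with this element is not given here, and no link between element and peak was tested. In these 5 the match lay 90 to 616 bp from the summit. A match is not evidence that a factor is bound.

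Genes that work beside the synthetases were looked up for comparison. Of 16 named partners 5 had a TSS peak (31.2%), against the same 19.5%. GatA and GatC, subunits of the amidotransferase that completes mitochondrial glutaminyl-tRNA, had signal values of 319.1 and 83.7. eEF1gamma and eEF1alpha1, parts of the elongation factor that takes charged tRNA to the ribosome, had 227.2 and 173.8. AIMP1, a scaffold protein of the multisynthetase complex, had 90.2. Its TSS window held an entry of replicate 3 (rank 2200) and none of replicate 2. The GatA summit was also near a start of P5cr, that of GatC near PolG2 and Polr2C, and that of AIMP1 near PAN2. For GatA, GatC and AIMP1 the lists cannot say to which gene the peak belongs. AIMP2, AIMP3, Slimp, GatB, eEF1alpha2, eEF1beta, eEF1delta, mEFTu1 and mEFTu2 had no TSS peak. Nor did crc, the fly ATF4 gene, whose pooled entry had a signal value of 56.3 (rank 6399), or Gcn2, the kinase that senses uncharged tRNA, which had an entry in replicate 2 only (rank 3518), both named after their values were seen. Translation factor genes stood at 34.6% (18 of 52), close to the synthetase share. Cytoplasmic ribosomal protein genes stood at 59.8% and mitochondrial ones at 35.6%.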

How the data were processed

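Per the text deposited with each library, the authors called peaks and background from replicate 2, replicate 3 and their pool against a control alignment, and derived the IDR list from these. Sonicated chromatin fragments were 200 to 800 bp, per the labels' protocols. Which aligner, caller and IDR threshold were used was not given in the sources used here. Each deposited list gives a signal value per peak, used here within its list only, and a −log10 q-value, not used for any result. The 4 lists on dm6 were used, and the 4 on dm3 were not.

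Genes and start sites came from the Ensembl release 115 annotation, and sequence from the RefSeq Release 6 genome, whose arm lengths contained all peaks. Ranks are by signal value. A gene was called by a summit within 500 bp of any of its start sites, and the alternatives were windows of 250 and 1000 bp, the 2022 strongest IDR peaks, each replicate alone, the first start site only and unshared summits only. The lookup was tested on simulated summits. Python 3.11.15, pandas 2.3.3, numpy 2.4.6 and scipy 1.17.1 were used. Depth is unknown, and no interval is given. All synthetase genes were named. Other genes were named where their start lay within 500 bp of a counted summit or where they were partner genes with a peak. Partner genes without a peak, the neighbours of partner peaks and Bx, whose intron holds the HisRS summit, were added after their values were seen. The members and lists were chosen with earlier results of these data known.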

Additional observations from a re-analysis of the deposited data

How the results depend on the processing

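The 12 synthetase genes with a TSS peak became 11 with a 250 bp window, which dropped ValRS, against 16% of all protein-coding genes. With a 1000 bp window, which added HisRS, they became 13, against 22.4%. With only the first start site of each gene AspRS was lost, leaving 11, against 17.5% of all protein-coding genes. With only the 2022 strongest IDR peaks 6 remained at the TSS, 6 with the gene body added, and 4 among cytoplasmic genes. Of all protein-coding genes 11.2% remained at the TSS and 14.1% with the gene body. With unshared summits only the counts were 1, 2 and 1, and 0 among mitochondrial genes. Of all protein-coding genes 8.29% then remained at the TSS and 12.7% with the gene body. These 2 settings keep fewer peaks by construction. With the strongest entries of a single replicate in place of the IDR list, 11 to 12 genes had a TSS peak. With the gene body it was 11 to 13. At the TSS it was 9 of the cytoplasmic genes either way, and 2 to 3 of the mitochondrial genes. The shares of all protein-coding genes were 19.2 to 19.4% at the TSS and 23.2 to 23.8% with the gene body. Without replicate 2 AsnRS was lost, and without replicate 3 GlnRS was lost and SerRS-m gained. With the gene body added, HisRS was lost too without replicate 2. Asking for the 2022 strongest entries of both replicates left 5 genes in place of 10, and asking for 8090 gave 14. The share of all protein-coding genes was 16.2% for the setting that gave 10. It is not given here for the settings that gave 5 and 14, so these show only how the count moves. Entries in all 3 relaxed lists went from 25 genes to 22 when their summits had to lie within 200 bp. The share of all protein-coding genes was 41.9% without that condition and is not given here with it. The median rank ratio stayed at 1.33 with the entry nearest to the IDR summit, while its maximum went from 2.05 to 2.54. Wider sequence windows raised several motif counts, among them the response element TGATGCAA from 0 to 8 promoters. No paired analysis was possible because there is 1 group and no test. Read numbers were not available here, so an absent entry cannot be told apart from low depth.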
